A study of Mus musculus with 12 samples.

Results

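The 42 genes described here are the collagen genes of the mouse colon that the array platform measured. They are every gene whose symbol in the platform annotation has the form of a collagen chain (Col, a type number, a and a chain number), 42 of 19505 named genes, and each was represented by a single probe among 22206. By the structure they build they fall into 11 fibrillar chains, 8 chains of basement membranes and 23 other chains. The last group holds 8 FACIT chains (fibril-associated collagens with interrupted triple helices), 6 type VI chains, 3 short-chain network collagens, 4 transmembrane collagens and 2 chains outside these families, Col26a1 and Col28a1. Col7a1 and Col12a1 had no probe under their names and were not analysed here.

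Total RNA from colonic tissue of healthy male mice aged 12 to 16 weeks was hybridised to Affymetrix arrays. The 4 genotypes were wild type, LAO1 KO, IL4i1 KO and the double knockout, DKO, which lacks both genes. Lao1 and Il4i1 encode L-amino acid oxidases, enzymes that deaminate free amino acids and release hydrogen peroxide. The design text places the comparison in a study of colonic inflammation caused by the double knockout. Each genotype had 3 arrays. The labels state that 4 mice were chosen per genotype and do not tie an array to 1 mouse. The tests therefore reflect only how far these samples vary, which may be technical. They give neither the strain background nor the construction of the knockout alleles.

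The values are log2 expression as the authors deposited it, with array medians of 5.42 to 5.49 and correlations between arrays of 0.964 to 0.99. The targeted genes could not check the labels, since the Lao1 probe read 2.64 to 3.56 on all arrays and Il4i1 had 0 probes. The mean log2 level of the 12 colon epithelial markers was 15.06 to 16.45 across the arrays, far above the array medians. One library stood apart: DKO replicate 2 had a summed level of 8 pancreatic acinar enzyme genes of 20.7 (log2), against 7.18 to 8.18 on the other 11 arrays. The main double-knockout results are therefore given with and without it. In bulk tissue, fewer cells of a type and less RNA per cell cannot be told apart.

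Collagens are triple helices of 3 polypeptide chains, and they form most of the extracellular scaffold of the gut wall. Fibrillar collagens, chiefly types I and III, make the cables of the submucosa and lamina propria and are produced mainly by fibroblasts and, in the muscle layers, by smooth muscle cells. Type IV collagen forms the sheet on which the epithelium, vessels and muscle cells rest, and type VI forms beaded filaments that link fibrils to cells. Chains are hydroxylated and folded in the endoplasmic reticulum, trimmed outside the cell, cross-linked by lysyl oxidases and degraded by matrix metalloproteinases.

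No collagen differed between genotypes past the threshold in any comparison. With limma over all 22206 probes and Benjamini-Hochberg adjustment at 0.05, 0 of 42 collagens passed in DKO against wild type, where 5 probes (0.0225%) passed. The same count of 0 held for LAO1 KO against wild type, where 1 probe (0.0045%) passed, and for IL4i1 KO against wild type, where 3 probes (0.0135%) passed. It was also 0 for DKO against LAO1 KO (31 probes, 0.14%), for DKO against IL4i1 KO (106 probes, 0.477%) and for the interaction, the double knockout's departure from the sum of the single knockouts (51 probes, 0.23%). The median half-width of the 95% interval of a collagen difference from wild type was 0.55 on the log2 scale, and 0.90 for the 7 brightest probes. These intervals are unadjusted, so a difference larger than its half-width need not pass the adjusted threshold. Col1a2 in IL4i1 KO, at -1.25 with a half-width of 1.08, had a limma adjusted p of 0.604.

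At an unadjusted p under 0.05, 1 collagen stood out in DKO against wild type, where 7.44% of all probes did so (3.63% higher and 3.81% lower). There was 1 in LAO1 KO against wild type, with 3.02% of all probes, and 3 in IL4i1 KO against wild type, with 7.58%. Against the single knockouts the double knockout had 1 such collagen relative to LAO1 KO (7.15% of probes) and 1 relative to IL4i1 KO (9.83%), and the interaction had 3 (7.12%). The shares of collagens, 2.38% where 1 gene stood out and 7.14% where 3 did, were below or near these backgrounds.

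**Figure D1:**
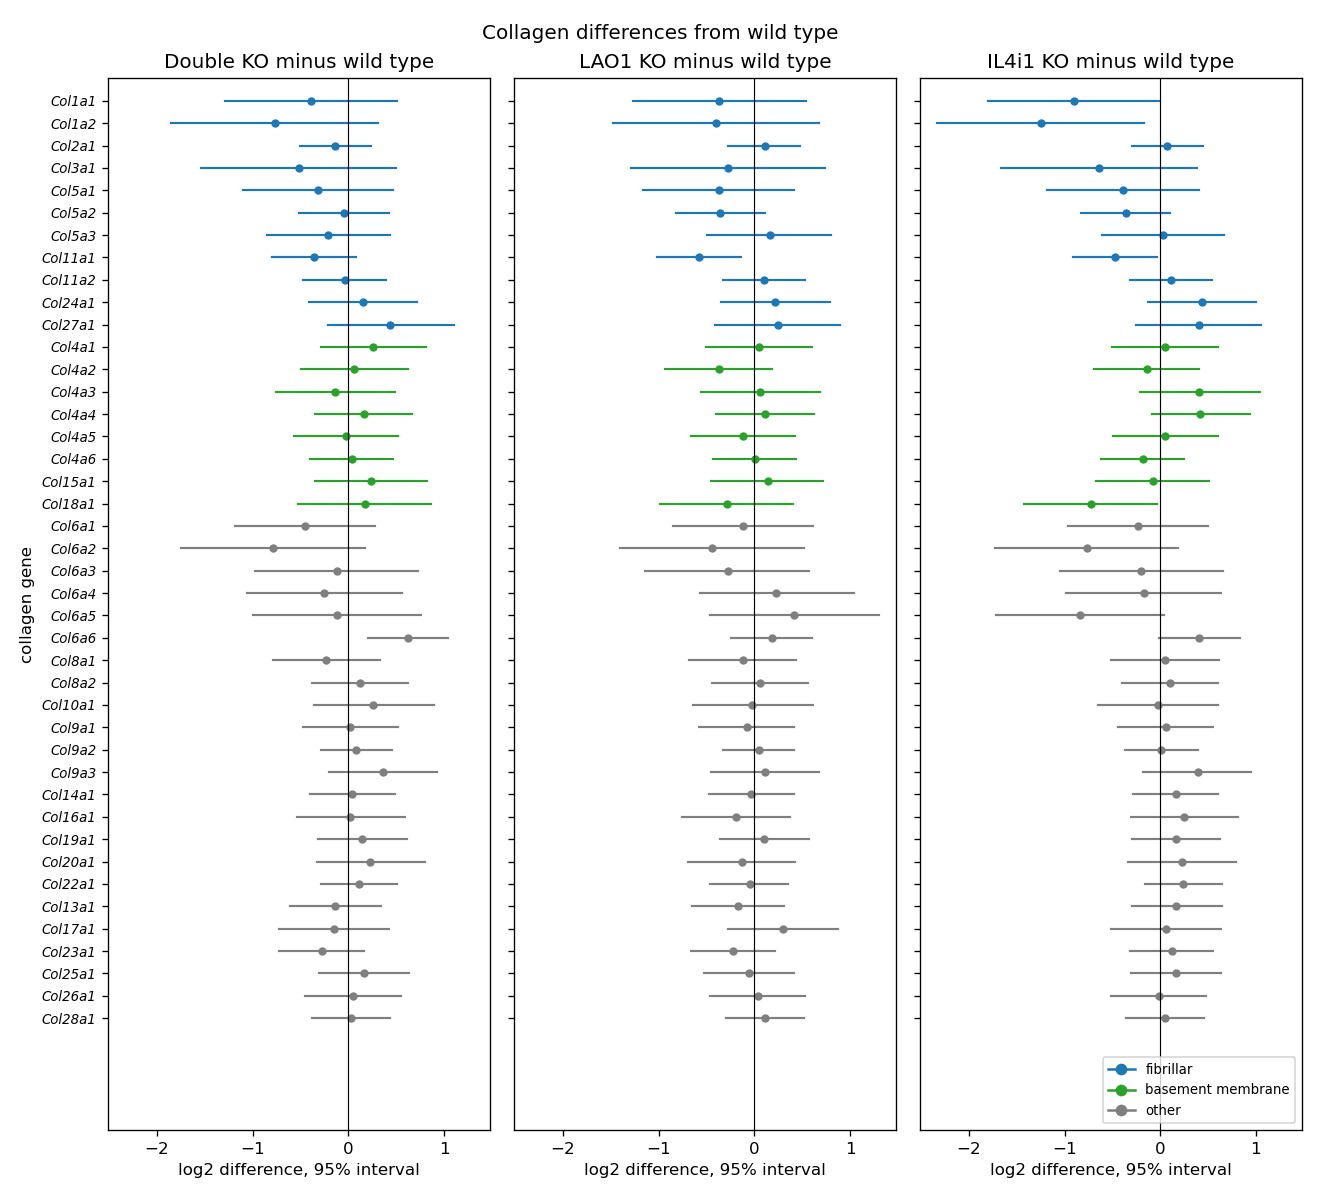
Log2 difference from wild type (x axis) of each of the 42 collagen genes (y axis, coloured by class) in the double knockout, LAO1 KO and IL4i1 KO. Points are differences of means over 3 arrays and lines are unadjusted 95% intervals from the limma fit. Most intervals span 0, and those of Col1a2 and Col3a1 are the widest, at 1.08 and 1.02 on either side.

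The fibrillar collagens of types I and III had the brightest collagen probes. Probe brightness does not rank transcripts of different genes, so each probe is compared only with itself. Col3a1, which forms the type III homotrimer of distensible tissues, read 13.80, 13.90 and 13.16 on the wild-type arrays and 13.21, 13.47 and 13.35 in LAO1 KO. It read 12.94, 12.50 and 13.50 in IL4i1 KO and 13.31, 14.22 and 11.77 in DKO. The double knockout thus held both the highest and the lowest value of all 12 arrays, and each knockout overlapped wild type. Differences from wild type were -0.28 in LAO1 KO (SE 0.47), -0.64 in IL4i1 KO (SE 0.47) and -0.52 in DKO (SE 0.47), with adjusted p of 1.0, 0.762 and 0.856 in the limma fit. The highest value was that of DKO replicate 2, and without it the DKO difference was -1.08 (limma adjusted p = 0.391). Over the fits that left out 1 array it ran from -1.08 to 0.14.

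Col1a2 encodes the second chain of type I collagen, the main load-bearing fibril. Its wild-type values were 11.50, 10.96 and 10.08, and its LAO1 KO values were 10.43, 10.31 and 10.59. The IL4i1 KO arrays read 10.09, 8.99 and 9.72, all below the higher pair of wild-type arrays, with the highest of them just above wild-type replicate 3. In DKO the values were 9.58, 11.43 and 9.23, with replicate 2 close to the highest wild-type array. IL4i1 KO had a mean 0.42-fold that of wild type (95% interval 0.20 to 0.89), a log2 difference of -1.25 (SE 0.50, unadjusted p = 0.027, limma adjusted p = 0.604). The differences of -0.40 in LAO1 KO (SE 0.50) and -0.77 in DKO (SE 0.50) had unadjusted limma p of 0.435 and 0.15.

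Col1a1, the partner that supplies the other chains of the type I trimer, read 10.44, 10.17 and 9.30 in wild type, 9.93, 9.34 and 9.54 in LAO1 KO, and 9.29, 8.62 and 9.30 in IL4i1 KO. In DKO it read 10.24 on replicate 1 and 8.50 on replicate 3, with replicate 2 between them, for a mean of 9.58 ± 0.94 (SD, n = 3). The highest IL4i1 KO array equalled the lowest wild-type array to 2 decimals. The differences from wild type were -0.37 in LAO1 KO, -0.90 in IL4i1 KO (SE 0.42, unadjusted p = 0.0504, limma adjusted p = 0.657) and -0.39 in DKO. The DKO difference was -0.60 without DKO replicate 2 and ran from -0.72 to 0.15 over the fits that left out 1 array.

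The windows around the annotated starts of Col1a2 and Col3a1 are printed because Col1a2 had the largest IL4i1 KO difference of the 42 collagens and Col3a1 had the brightest collagen probe. RefSeq windows on GRCm38.p6 hold 250 bases before and 50 bases after the start and run 5′ to 3′ on the gene's strand. Capitals mark the motif CCAAT, the motif TATAAA or the motif GGGCGG, searched on both strands. The Col1a2 window (chr6:4505368-4505667, plus strand) held CCAAT at 2 places and GGGCGG at 2, and the Col3a1 window (chr1:45311288-45311587, plus strand) held 1 TATAAA.
Col1a2: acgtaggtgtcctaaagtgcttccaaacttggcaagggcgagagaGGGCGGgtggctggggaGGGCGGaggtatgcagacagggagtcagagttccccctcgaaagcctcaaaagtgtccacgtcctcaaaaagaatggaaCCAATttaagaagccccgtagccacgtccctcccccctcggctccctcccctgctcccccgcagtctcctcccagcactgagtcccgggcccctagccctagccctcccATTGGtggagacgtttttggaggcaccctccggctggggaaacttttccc
Col3a1: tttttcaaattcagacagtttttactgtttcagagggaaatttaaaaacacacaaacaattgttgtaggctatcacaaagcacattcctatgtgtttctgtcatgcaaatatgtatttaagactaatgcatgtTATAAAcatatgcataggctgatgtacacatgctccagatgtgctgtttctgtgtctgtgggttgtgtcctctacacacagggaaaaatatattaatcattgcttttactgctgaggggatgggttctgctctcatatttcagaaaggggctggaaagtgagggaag
CCAAT was in 32.4% of the 37 windows of the 34 collagens that had an entry and in 37.4% of all 32851 windows. TATAAA was in 13.5% and 13.6%, and GGGCGG, the core of a GC box, in 59.5% and 35.7%. A match is a run of letters and shows no binding.

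The minor fibrillar chains lay outside the bright set. Col5a2, whose product sits inside type I fibrils and limits their width, read 6.19, 6.38 and 5.73 in wild type, 5.65, 5.72 and 5.86 in LAO1 KO, 5.85, 5.48 and 5.88 in IL4i1 KO and 6.25, 5.84 and 6.06 in DKO. Both single knockouts averaged 0.36 below wild type while the double knockout did not share this, giving an interaction of 0.67 (SE 0.31, unadjusted p = 0.0469, limma adjusted p = 0.698). Its partners Col5a1 and Col5a3 ranged from 3.25 to 4.95 and from 3.83 to 5.02.

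Col11a1, a chain best known from cartilage that also nucleates thin fibrils, had values of 4.24, 4.19 and 3.84 in wild type. The LAO1 KO arrays read 3.37, 3.34 and 3.83, the IL4i1 KO arrays 3.51, 3.73 and 3.63, and the DKO arrays 3.89, 3.56 and 3.74. Every single-knockout array lay below every wild-type array, though in LAO1 KO by as little as 3.83 against 3.84. The differences were -0.58 in LAO1 KO (SE 0.20, unadjusted p = 0.0139), -0.47 in IL4i1 KO (unadjusted p = 0.0389) and -0.36 in DKO (unadjusted p = 0.1), with limma adjusted p of 1.0, 0.64 and 0.744. Both single-knockout contrasts use the same wild-type arrays. The interaction was 0.68 (SE 0.29, unadjusted p = 0.0334, limma adjusted p = 0.651). All 12 values lie below 4.67, the 40th percentile of probe means, where little signal separates a transcript from the array's background.

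Among the remaining fibrillar chains, Col27a1 was 0.44 above wild type in DKO (SE 0.30, unadjusted p = 0.166, limma adjusted p = 0.801, or 0.29 without DKO replicate 3 and 0.70 without wild-type replicate 3) and Col24a1 was 0.44 above it in IL4i1 KO (SE 0.26, unadjusted p = 0.121, limma adjusted p = 0.707). Col2a1, the cartilage fibril chain, stayed between 3.52 and 4.05 on all arrays, and 7 of 8 cartilage and bone markers were as dim. The DKO values of Col2a1, 3.52, 3.56 and 3.66, were below every array of the other genotypes, with a difference of -0.24 from LAO1 KO (SE 0.17, unadjusted p = 0.186). Across the 11 fibrillar chains, 9 were below wild type in DKO, 6 in LAO1 KO and 6 in IL4i1 KO, while 49.6%, 48.6% and 46.6% of all probes were. Their median differences were -0.21, -0.28 and -0.36, beside medians over all probes of 0.0, 0.01 and 0.03. Single arrays moved these medians: the DKO median was -0.28 without DKO replicate 2 and -0.03 without DKO replicate 3. The LAO1 KO median was 0.0 without wild-type replicate 2, -0.08 without wild-type replicate 1 and -0.51 without wild-type replicate 3. The IL4i1 KO median was -0.13 without wild-type replicate 2, -0.24 without IL4i1 KO replicate 2 and -0.55 without wild-type replicate 3. These 3 comparisons share the wild-type arrays and are not independent of each other.

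**Figure D2:**
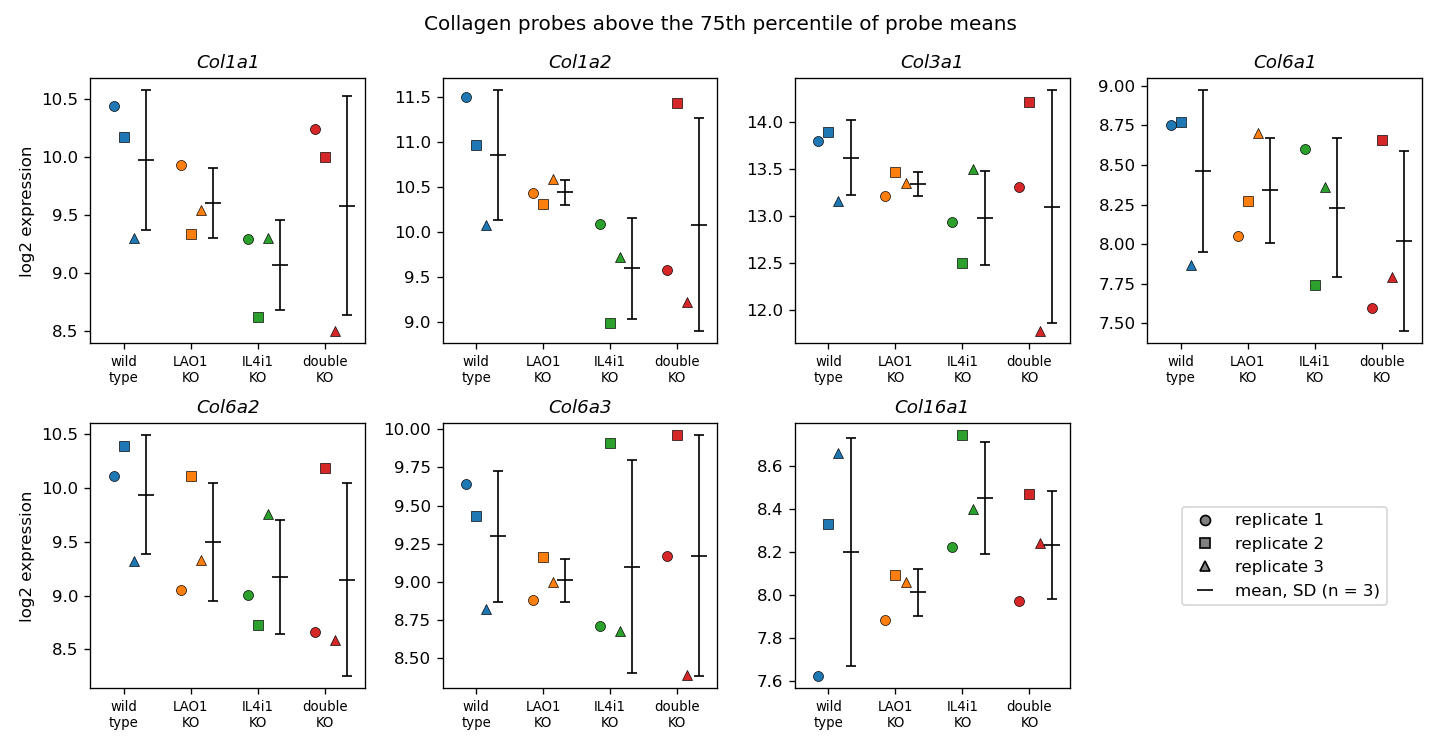
Log2 expression (y axis) of the 7 collagen probes above the 75th percentile of probe means on each array, by genotype (x axis), with replicate number as marker shape. Horizontal bars with whiskers are the mean and SD of 3 arrays. Wild-type replicate 3 is the lowest wild-type array for 6 of the 7 genes, and the double knockout has the widest spread for Col3a1, Col1a2 and Col1a1.

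In each knockout against wild type, the largest difference among the basement membrane collagens was smaller in size than that among the fibrillar chains. The reverse held in DKO against LAO1 KO (0.46 and -0.37), DKO against IL4i1 KO (0.89 and 0.51) and the interaction (1.18 and 0.88). Col4a1 and Col4a2, which together make the common type IV network under the epithelium, ranged from 5.77 to 6.71 and from 6.66 to 7.96, and their genotypes overlapped. Col4a2 was 0.37 lower in LAO1 KO than in wild type (-0.37, SE 0.26, unadjusted p = 0.169, limma adjusted p = 1.0) and 0.44 higher in DKO than in LAO1 KO (SE 0.26, unadjusted p = 0.112, limma adjusted p = 0.796). The latter was 0.14 without DKO replicate 1 and the former -0.24 without LAO1 KO replicate 3. The 2 genes lie head to head, so their windows are printed to show the start region they share. Capitals mark the 78 bases that belong to both the Col4a1 window (chr8:11312777-11313076, minus strand) and the Col4a2 window (chr8:11312555-11312854, plus strand).
Col4a1: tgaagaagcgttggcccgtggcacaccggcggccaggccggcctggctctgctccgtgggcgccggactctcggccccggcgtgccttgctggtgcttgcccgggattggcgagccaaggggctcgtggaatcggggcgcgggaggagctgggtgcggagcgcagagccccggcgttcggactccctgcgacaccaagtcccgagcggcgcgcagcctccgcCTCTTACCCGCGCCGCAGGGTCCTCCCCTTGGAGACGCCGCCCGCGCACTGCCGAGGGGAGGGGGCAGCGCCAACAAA
Col4a2: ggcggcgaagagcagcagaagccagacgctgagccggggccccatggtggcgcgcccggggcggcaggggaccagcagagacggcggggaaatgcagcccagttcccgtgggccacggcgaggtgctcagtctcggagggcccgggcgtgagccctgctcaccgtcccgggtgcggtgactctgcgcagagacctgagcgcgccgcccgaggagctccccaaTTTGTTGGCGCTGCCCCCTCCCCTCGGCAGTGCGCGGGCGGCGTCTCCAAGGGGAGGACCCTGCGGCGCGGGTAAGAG
Their differences from wild type were 0.26 and 0.06 in DKO, 0.05 and -0.37 in LAO1 KO and 0.05 and -0.14 in IL4i1 KO.

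Among the chains of the restricted type IV networks, Col4a3, Col4a4 and Col4a5 had probe means below the 40th percentile and Col4a6 just above it. Col4a3 ranged from 3.04 to 4.35, Col4a4 from 4.09 to 4.87, Col4a5 from 3.73 to 4.61 and Col4a6 from 4.43 to 5.03. Col4a4 was above every wild-type array on all 3 IL4i1 KO arrays, 4.54, 4.83 and 4.87 against 4.09, 4.48 and 4.40 (difference 0.42, SE 0.24, unadjusted p = 0.0986, limma adjusted p = 0.691). Its neighbour and partner Col4a3 differed by 0.41 in the same comparison. Against IL4i1 KO, Col4a3 was -0.55 in DKO (SE 0.29, unadjusted p = 0.0789, limma adjusted p = 0.575).

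Col18a1 encodes the core of a heparan sulfate proteoglycan of basement membranes and the source of the fragment endostatin. Wild-type arrays read 8.33, 8.44 and 7.44, and LAO1 KO arrays 7.89, 7.69 and 7.75. IL4i1 KO arrays read 7.27, 7.29 and 7.48, and DKO arrays 8.88, 8.30 and 7.53. Every DKO array was thus above every IL4i1 KO array, by as little as 7.53 against 7.48, while wild type overlapped both. The double knockout was 0.89 above IL4i1 KO (95% interval 0.19 to 1.59, unadjusted p = 0.016, limma adjusted p = 0.36) and 0.46 above LAO1 KO (SE 0.32, unadjusted p = 0.177). IL4i1 KO was -0.72 from wild type (SE 0.32, unadjusted p = 0.0427, limma adjusted p = 0.646).

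The Col18a1 interaction was 1.18 (95% interval 0.20 to 2.17, unadjusted p = 0.022, limma adjusted p = 0.592), the largest in size among the 42 collagens, and 1.15 without DKO replicate 2 (unadjusted p = 0.0391, limma adjusted p = 0.642). Without DKO replicate 2 the difference from IL4i1 KO was 0.86 (unadjusted p = 0.0391, limma adjusted p = 0.429). Without DKO replicate 3, the lowest DKO array, it was 1.24 (unadjusted p = 0.0013, limma adjusted p = 0.145), and without DKO replicate 1, the highest, it was 0.57. The difference from LAO1 KO was 0.14 without DKO replicate 1 and 0.81 without DKO replicate 3, and the interaction was 0.86 without DKO replicate 1. The gene has 2 annotated starts, and the array does not tell their transcripts apart here, so both windows are shown, with the same motifs in capitals. The upstream window (chr10:77166481-77166780, minus strand) held GGGCGG on either strand at 3 places and 1 CCAAT, and the downstream window (chr10:77113656-77113955, minus strand) held 0 of the 3 motifs.
Col18a1, upstream start: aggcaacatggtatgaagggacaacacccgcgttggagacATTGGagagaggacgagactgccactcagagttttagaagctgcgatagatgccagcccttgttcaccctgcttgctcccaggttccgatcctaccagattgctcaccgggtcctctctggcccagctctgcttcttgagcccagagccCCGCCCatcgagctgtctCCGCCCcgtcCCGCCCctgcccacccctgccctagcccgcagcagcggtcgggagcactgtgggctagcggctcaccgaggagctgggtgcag
Col18a1, downstream start: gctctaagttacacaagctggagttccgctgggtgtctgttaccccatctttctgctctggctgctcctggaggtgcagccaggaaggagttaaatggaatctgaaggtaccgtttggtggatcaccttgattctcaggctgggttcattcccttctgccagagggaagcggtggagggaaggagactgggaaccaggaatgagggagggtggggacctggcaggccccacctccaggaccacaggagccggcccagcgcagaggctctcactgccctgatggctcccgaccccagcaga
Over the 8 basement membrane chains, 6 were above wild type in DKO, 5 in LAO1 KO and 4 in IL4i1 KO, with median differences of 0.11, 0.03 and -0.01.

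Type VI collagen supplied 3 of the 7 bright probes. Col6a2 read 10.11, 10.39 and 9.32 in wild type, 9.05, 10.11 and 9.33 in LAO1 KO, 9.01, 8.73 and 9.76 in IL4i1 KO and 8.66, 10.19 and 8.59 in DKO. Its differences from wild type were -0.79 in DKO (SE 0.44, unadjusted p = 0.0972, limma adjusted p = 0.742), -0.44 in LAO1 KO and -0.77 in IL4i1 KO. Col6a1, its neighbour on chromosome 10 and partner in the heterotrimer, read 8.75, 8.77 and 7.87 in wild type and 7.60, 8.66 and 7.79 in DKO. The DKO difference of Col6a1 was -0.45 (SE 0.34, unadjusted p = 0.21). It was -0.77 without DKO replicate 2 and ran from -0.77 to -0.24 over the fits that left out 1 array.

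Col6a3, the large alpha 3 chain, read 9.64, 9.43 and 8.82 in wild type, 8.88, 9.16 and 9.0 in LAO1 KO, 8.71, 9.91 and 8.68 in IL4i1 KO and 9.17, 9.96 and 8.39 in DKO. Its genotypes overlapped throughout, with differences from wild type between -0.28 and -0.12. The DKO difference of Col6a3 was -0.52 without DKO replicate 2 and ran from -0.52 to 0.27 over the fits that left out 1 array. IL4i1 KO replicate 2 was the highest array of its genotype for Col6a3 and the lowest for the other 5 type I, III and VI chains in the bright set.

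Col6a6, a later-described chain that can take the place of that alpha 3 chain, was the collagen with the smallest p in DKO against wild type. Its wild-type arrays read 3.50, 3.61 and 3.55, LAO1 KO arrays 3.79, 3.74 and 3.66, IL4i1 KO arrays 3.81, 3.95 and 4.13, and DKO arrays 4.0, 4.53 and 3.98. No knockout array overlapped wild type. The differences from wild type were 0.62 in DKO (SE 0.20, unadjusted p = 0.00746, limma adjusted p = 0.504), 0.18 in LAO1 KO (unadjusted p = 0.382) and 0.41 in IL4i1 KO (unadjusted p = 0.0557), and DKO was 0.44 above LAO1 KO (unadjusted p = 0.042, limma adjusted p = 0.691). Its 12 values lie below the 40th percentile of probe means. Without DKO replicate 2 the difference of DKO from wild type was 0.44 (unadjusted p = 0.0461) and that from LAO1 KO was 0.26.

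The window of Col6a6 (chr9:105828036-105828335, minus strand) is given because the gene heads the run Col6a6, Col6a5 and Col6a4 on chromosome 9. It held GGGCGG on either strand at 2 places, in capitals.
Col6a6: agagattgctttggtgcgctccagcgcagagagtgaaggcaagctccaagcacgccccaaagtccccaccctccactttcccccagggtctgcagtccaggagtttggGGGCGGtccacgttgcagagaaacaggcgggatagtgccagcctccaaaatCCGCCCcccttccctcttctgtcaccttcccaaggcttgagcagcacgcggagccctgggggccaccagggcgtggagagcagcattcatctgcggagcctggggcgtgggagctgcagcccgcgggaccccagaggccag
Neither neighbour shared its direction in every knockout. The next gene, Col6a5, differed from wild type by -0.12 in DKO, 0.42 in LAO1 KO (SE 0.41, unadjusted p = 0.319) and -0.84 in IL4i1 KO (unadjusted p = 0.0601), and the gene after it, Col6a4, by -0.25, 0.23 and -0.17. All 3 IL4i1 KO arrays of Col6a5, 3.73, 4.18 and 4.47, were below the wild-type arrays of 5.65, 4.49 and 4.76, and its LAO1 KO arrays spread from 4.43 to 6.06.

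The other collagens gave no pattern beyond their spread. Col16a1, the FACIT chain in the bright set, which is found on small fibrils and at cell contacts, read 7.62, 8.33 and 8.66 in wild type, 7.88, 8.09 and 8.06 in LAO1 KO, 8.22, 8.74 and 8.40 in IL4i1 KO and 7.97, 8.47 and 8.24 in DKO. Its differences from wild type were -0.19 in LAO1 KO, 0.25 in IL4i1 KO and 0.02 in DKO. All 8 FACIT chains had a DKO difference above 0, between 0.02 and 0.36, with none past an unadjusted p of 0.05 (median 0.10). All 8 were also above wild type in IL4i1 KO (median 0.19), which shares the wild-type arrays, and 3 of 8 were in LAO1 KO (median -0.04). The largest was that of Col9a3, part of a heterotrimer that coats cartilage fibrils (0.36, SE 0.26, unadjusted p = 0.188, or 0.15 without wild-type replicate 2 and 0.59 without DKO replicate 1), whose partners Col9a1 and Col9a2 differed by 0.02 and 0.08.

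Of the transmembrane collagens, Col17a1, a hemidesmosome component of stratified epithelia, had LAO1 KO values of 3.42, 3.17 and 3.44 above the wild-type values of 3.10, 3.10 and 2.93 (difference 0.30, SE 0.26, unadjusted p = 0.277) and was -0.45 in DKO against LAO1 KO (unadjusted p = 0.11). Both groups are near the floor of the array. Col23a1 was -0.40 in DKO against IL4i1 KO (SE 0.20, unadjusted p = 0.0715, limma adjusted p = 0.554), and Col13a1 was -0.31 (SE 0.22, unadjusted p = 0.184). Over the 23 other collagens the median differences from wild type were 0.03 in DKO, -0.03 in LAO1 KO and 0.06 in IL4i1 KO.

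**Figure D3:**
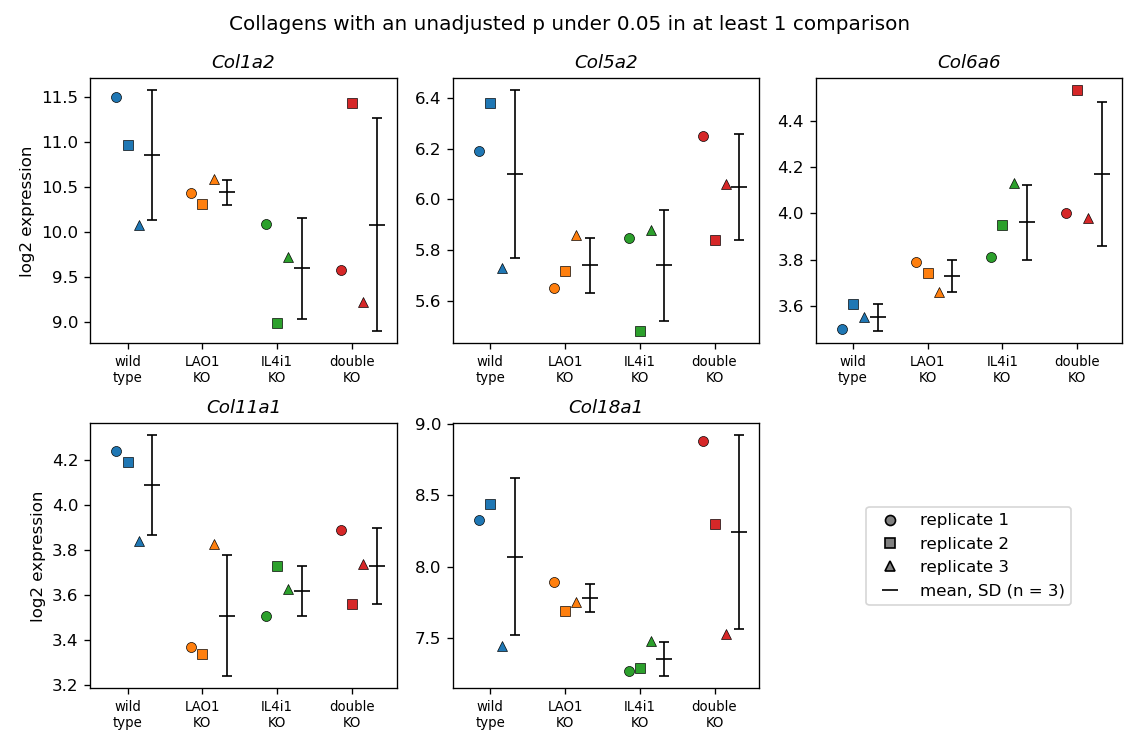
Log2 expression (y axis) on each array, by genotype (x axis), of the 5 collagens with an unadjusted p under 0.05 in at least 1 of the 6 comparisons. Bars with whiskers are the mean and SD of 3 arrays. Col6a6 is above its wild-type range on every knockout array, but within values of 3.50 to 4.53, and Col18a1 is above its IL4i1 KO range on every DKO array.

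Some collagens had 2 groups of arrays that did not overlap. In DKO against wild type these were Col6a6 and Col24a1 above and Col2a1 below, 3 of 42 collagens (7.14%), where 11.6% of all probes did not overlap. In LAO1 KO they were Col6a6 and Col17a1 above and Col11a1 and Col23a1 below (9.52%, against 8.53% of probes), and in IL4i1 KO Col4a4 and Col6a6 above and Col6a5 and Col11a1 below (9.52%, against 11.1%). DKO against LAO1 KO had Col6a6 above and Col2a1 below, and DKO against IL4i1 KO had Col18a1 above and Col2a1 below (4.76% in each, against 12.7% of probes in each). The 3 named in DKO against wild type all had dim probes. Of the 25 collagens above the 40th percentile of probe means, 0 were without overlap in that comparison.

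Within genotypes, the type I, III and VI chains in the bright set mostly shared their high and low arrays. Wild-type replicate 3 was the lowest wild-type array for 6 of these 6 genes. DKO replicate 2 was the highest DKO array for 5 of them and DKO replicate 3 the lowest for 5. The median SD within a genotype over the 7 bright collagens was 0.53 in wild type, 0.14 in LAO1 KO, 0.50 in IL4i1 KO and 0.90 in DKO, beside 0.27, 0.24, 0.31 and 0.28 over all probes.

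All 6 of these chains averaged below wild type in each knockout, with median differences of -0.48 in DKO, -0.33 in LAO1 KO and -0.71 in IL4i1 KO. The wild-type arrays are common to the 3 comparisons, and single arrays moved them. Without DKO replicate 3 the DKO median was -0.09, with 3 chains above and 3 below wild type. Without DKO replicate 2 it was -0.92. The largest differences of the 6 in that fit were those of Col1a2 (-1.44, SE 0.39, unadjusted p = 0.00285, limma adjusted p = 0.217) and Col6a2 (-1.31, SE 0.39, unadjusted p = 0.00549, limma adjusted p = 0.274). Of all probes, 38 passed the adjusted threshold in that fit, against 5 in the main fit, and 0 collagens did. Without wild-type replicate 3 the medians were -0.75 in DKO, -0.61 in LAO1 KO and -0.98 in IL4i1 KO. The LAO1 KO median was -0.12 without wild-type replicate 1 and -0.22 without wild-type replicate 2 or LAO1 KO replicate 1.

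The small counts of low p-values over all 42 collagens rested on single arrays too. In DKO against wild type the count of 1 became 5 without DKO replicate 2, 4 without wild-type replicate 3 and 2 without DKO replicate 1. In LAO1 KO it became 0 without LAO1 KO replicate 1 or wild-type replicate 1 and 2 without wild-type replicate 3. In IL4i1 KO the count of 3 became 6 without wild-type replicate 3, 5 without DKO replicate 2, 1 without IL4i1 KO replicate 2 or wild-type replicate 2 and 0 without wild-type replicate 1. For DKO against LAO1 KO it became 3 without DKO replicate 3, 2 without DKO replicate 1 or 2, and 0 without LAO1 KO replicate 1 or 3 or wild-type replicate 1 or 2.

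For DKO against IL4i1 KO the count of 1 became 4 without DKO replicate 3, 3 without DKO replicate 2, 2 without IL4i1 KO replicate 1 or LAO1 KO replicate 2, and 0 without DKO replicate 1. The interaction count of 3 became 1 without DKO replicate 1 or LAO1 KO replicate 1 or 2 and 0 without wild-type replicate 1 or 2. No collagen passed the adjusted threshold in any of these fits. The share of all probes at an unadjusted p under 0.05 is not given for them, so these counts are not read as collagen results.

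The summed level of the 7 bright collagens ranged from 13.62 to 14.37 in wild type, 13.70 to 13.92 in LAO1 KO, 13.09 to 13.87 in IL4i1 KO and 12.48 to 14.65 in DKO. Fibroblast markers, of which 10 of 12 were measured, were high or low on several of the same arrays. All 10 averaged below wild type in LAO1 KO (median -0.38) and in IL4i1 KO (median -0.30). In DKO 7 did (median -0.25). Over all probes, 48.6%, 46.6% and 49.6% were below wild type in these comparisons. The fibroblast sum was 12.94 on wild-type replicate 3 against 13.87 and 13.93 on the other wild-type arrays. It was 14.04 and 12.27 on DKO replicates 2 and 3 and 12.20 on IL4i1 KO replicate 2, the arrays where the collagens stood highest or lowest in their genotypes. In LAO1 KO the lowest fibroblast sum was on replicate 3 (12.66) and the lowest collagen sum on replicate 1. Mfap5 and Pi16 were among the dim 40% of probes, and Pdgfra and C3 had no probe.

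Smooth muscle markers, 12 of 12 measured, summed to 18.56 to 19.19 in wild type, 18.13 to 19.04 in LAO1 KO, 18.66 to 19.95 in IL4i1 KO and 18.17 to 18.77 in DKO. All 12 averaged lower in DKO than in wild type (median -0.63), where 49.6% of all probes did. Of the 12 markers, 3 (25.0%) had an unadjusted p under 0.05 there, beside 7.44% of all probes, and 0 passed the limma adjusted threshold. In IL4i1 KO, 10 of 12 averaged higher than wild type (median 0.31). On IL4i1 KO replicate 2 the smooth muscle sum was the highest of all arrays and the bright collagen sum the lowest of its genotype. The part of tissue sampling in the collagen values was not tested.

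Genes that make, process, bind and degrade collagen were examined as 7 lists, and 0 members of any list passed the limma adjusted threshold in any comparison. Over all probes, 49.6% were below wild type in DKO and 7.44% had an unadjusted p under 0.05, the background for each list in that comparison. Of 18 measured chain-modifying enzymes and chaperones, 13 (72.2%) averaged below wild type in DKO (median -0.15). Of the 18, 2 (11.1%) had an unadjusted p under 0.05. These were P4ha2, a catalytic subunit of prolyl 4-hydroxylase (-0.53, SE 0.18, unadjusted p = 0.0117, limma adjusted p = 0.557), and P3h2, a prolyl 3-hydroxylase (-0.86, unadjusted p = 0.0239, or -1.3 without DKO replicate 2 and -0.51 without DKO replicate 3). Ppib, the cyclophilin that isomerises collagen prolines, separated IL4i1 KO from all others: it read 10.35, 10.46 and 10.57 there against 11.32, 11.44 and 11.19 in wild type. The difference was -0.86 (SE 0.21, unadjusted p = 0.00126, limma adjusted p = 0.484), and DKO arrays, at 10.84, 11.34 and 11.43, were 0.74 above IL4i1 KO (unadjusted p = 0.00355, limma adjusted p = 0.194). Fkbp14, another prolyl isomerase of the endoplasmic reticulum, was -0.98 in IL4i1 KO (SE 0.36, unadjusted p = 0.0173). Of the subunits of prolyl 4-hydroxylase, P4ha1 was -0.78 in DKO against LAO1 KO and -0.77 against IL4i1 KO, and P4ha3 was 0.52 against LAO1 KO. Plod2, a lysyl hydroxylase, was 0.64 against LAO1 KO (SE 0.22, unadjusted p = 0.0108, limma adjusted p = 0.52). Serpinh1, the collagen chaperone HSP47, was -0.64 in DKO against IL4i1 KO (SE 0.27, unadjusted p = 0.0336, limma adjusted p = 0.458).

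Among 13 measured processing and cross-linking genes, 8 averaged above and 5 below wild type in DKO (median 0.05). Mep1a, a meprin metalloprotease of the epithelial brush border that can also trim procollagen, read 12.86, 13.22 and 12.62 in wild type and 10.80, 11.40 and 9.63 in DKO. These groups did not overlap, and the difference was -2.29 (SE 0.66, unadjusted p = 0.00411, limma adjusted p = 0.435), or -2.69 without DKO replicate 2 (limma adjusted p = 0.211). Mep1a was also -1.70 against LAO1 KO (limma adjusted p = 0.626) and -1.74 against IL4i1 KO (limma adjusted p = 0.398), where the groups overlapped. Over the fits that left out 1 array these ran from -2.29 to -1.03 and from -2.46 to -1.25. The contrasts of Mep1a share the DKO arrays. Loxl1, a lysyl oxidase of elastic fibres, was -0.82 in LAO1 KO (SE 0.25, unadjusted p = 0.00652, limma adjusted p = 1.0), with values of 5.28, 4.91 and 4.63 below the wild-type 6.17, 5.60 and 5.50.

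Proteins that coat fibrils or share the basement membrane mostly averaged below wild type. This held for 12 of 14 fibril-associated genes in DKO, 13 in LAO1 KO and 11 in IL4i1 KO, with medians of -0.22, -0.39 and -0.31 and none at an unadjusted p under 0.05. Over all probes, 49.6%, 48.6% and 46.6% averaged below wild type in these comparisons. The mean log2 level of the fibril-associated genes was 9.79, 10.5 and 9.16 on the DKO arrays and 10.15, 10.38 and 9.82 in wild type. It was lowest on replicate 3 in both genotypes. Dcn, Lum and Fbln1 of this list are also fibroblast markers. Of 14 basement membrane partners, 12 were below wild type in DKO (median -0.31). Their mean log2 level was 7.73, 7.99 and 6.97 on the DKO arrays and 8.04, 8.18 and 7.51 in wild type, again lowest on replicate 3. Endothelial markers were also below wild type in DKO, 12 of 12 (median -0.45). Of these markers, 2 had an unadjusted p under 0.05, beside 7.44% of all probes, and 0 passed the limma adjusted threshold. Their summed level was 9.93 to 10.52 in wild type and 9.31 to 10.26 in DKO, and their part in the basement membrane values was not tested. Pxdn, the peroxidase that forms sulfilimine cross-links in type IV collagen, read 8.49, 8.28 and 8.14 in wild type and 7.11, 7.85 and 6.97 in DKO, a difference of -0.99 (SE 0.26, unadjusted p = 0.00182, limma adjusted p = 0.387), or -1.26 without DKO replicate 2 (limma adjusted p = 0.0727). It was also -0.77 against LAO1 KO (unadjusted p = 0.0101) and -0.64 against IL4i1 KO (unadjusted p = 0.0255), and these 3 contrasts share the DKO arrays. Lamb2, a laminin chain, was -0.66 against LAO1 KO (SE 0.28, unadjusted p = 0.0354). Nid1, which links laminin to type IV collagen, was -0.70 in LAO1 KO (SE 0.32, unadjusted p = 0.0484).

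The collagen breakdown list holds proteases and also Timp1, Timp2, Timp3 and Timp4, which inhibit metalloproteinases. Its counts therefore do not separate proteases from inhibitors. The listed genes went the other way in the double knockout, where 14 of 17 averaged above wild type (median 0.45). Of the 17, 4 (23.5%) had an unadjusted p under 0.05, all higher, beside 3.63% of all probes. Leukocyte markers lay the same way in this comparison, with 7 of 8 above wild type (median 0.27). Of these markers, 1 had an unadjusted p under 0.05, beside 7.44% of all probes, and 0 passed the limma adjusted threshold. Their summed level was 11.40 to 12.60 in wild type and 11.95 to 12.48 in DKO, and their part in the breakdown genes' values was not tested. Mmp12, a macrophage elastase, read 7.28, 4.82 and 5.18 in DKO against 3.68, 4.47 and 4.05 in wild type, a difference of 1.69 (SE 0.54, unadjusted p = 0.00755, limma adjusted p = 0.504). Without DKO replicate 2 the Mmp12 difference was 2.16 (limma adjusted p = 0.175), and without DKO replicate 1 it was 0.93. Against LAO1 KO it was 1.32 and against IL4i1 KO 1.70, or 0.56 and 0.94 without DKO replicate 1. Mmp8, the neutrophil collagenase, read 4.12, 3.94 and 4.31 against 3.42, 3.28 and 3.56, a difference of 0.70 (SE 0.22, unadjusted p = 0.00624, limma adjusted p = 0.493). In both genes every DKO array was above every wild-type array. The list's median rested on DKO replicate 1: without it the median was 0.01, with 9 genes above and 8 below wild type. It was 0.39 without DKO replicate 2.

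Among the breakdown genes, 3 metalloproteinases were named after their values were seen. On DKO replicate 1, Mmp3 read 7.55, Mmp10 read 8.62 and Mmp13 read 9.85. The highest values on the other 11 arrays were 4.54, 4.86 and 5.53. The bright collagens on that array were within the range of the other DKO arrays, with a sum of 13.73. The other DKO arrays of Mmp8, at 3.94 and 4.31, also exceeded wild type, but within the dim range below 4.67. Ctsl, a lysosomal cathepsin, had an interaction of -0.95 (SE 0.30, unadjusted p = 0.00776, limma adjusted p = 0.442), and Ctsk, a collagen-cleaving cathepsin, was 0.60 in DKO against IL4i1 KO (SE 0.21, unadjusted p = 0.0129).

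Collagen receptors and the TGF-beta axis, a main inducer of collagen synthesis, completed the lists. Among 10 receptors, 6 averaged below wild type in DKO, including the discoidin domain kinases Ddr2 (-0.70, SE 0.31, unadjusted p = 0.044, -1.15 without DKO replicate 2 and -0.45 without DKO replicate 1) and Ddr1 (-0.57, SE 0.26, unadjusted p = 0.0451). Lair1, an inhibitory collagen receptor of leukocytes, had an interaction of 1.19 (SE 0.33, unadjusted p = 0.00302, limma adjusted p = 0.291). It was -0.49 in LAO1 KO and -0.52 in IL4i1 KO against wild type, and DKO was 0.67 above LAO1 KO and 0.70 above IL4i1 KO. Without DKO replicate 2 the interaction was 1.04 (limma adjusted p = 0.405). The summed leukocyte markers ranged more widely in IL4i1 KO, from 9.68 to 12.72, than in DKO, from 11.95 to 12.48, and their part in the Lair1 values was not tested.

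Of 16 measured TGF-beta axis genes, 12 averaged below wild type in DKO (median -0.30). Ccn1, a matricellular protein, read 11.61, 11.22 and 9.46 in wild type, and 9.35, 9.46 and 8.86 in DKO, so that wild-type replicate 3 was close to the highest LAO1 KO and DKO arrays. The IL4i1 KO arrays, at 9.59, 10.83 and 9.85, were all above it. Its differences from wild type were -0.67 in IL4i1 KO (SE 0.51, unadjusted p = 0.209), -1.54 in DKO (SE 0.51, unadjusted p = 0.00969, limma adjusted p = 0.532) and -1.73 in LAO1 KO (SE 0.51, unadjusted p = 0.00476, limma adjusted p = 1.0). Tgfbr1, a receptor kinase of the pathway, was -0.57 in DKO (SE 0.22, unadjusted p = 0.0212), and Tgfb2 was -0.75 in DKO against IL4i1 KO (SE 0.24, unadjusted p = 0.00849, limma adjusted p = 0.274). The signal transducer Smad3 was -0.56 in DKO against IL4i1 KO, and Smad4 had an interaction of -0.87 (SE 0.38, unadjusted p = 0.0379).

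By position, 8 pairs of the measured collagens are neighbours in the RefSeq gene order. Of the targeted genes' chromosomes, chromosome 7, which carries Il4i1, holds 0 measured collagens, and chromosome 4, which carries Lao1, holds 5. The nearest to Lao1 is Col9a2, with 32 protein-coding genes between them, and its differences from wild type were 0.08 in DKO and 0.05 in LAO1 KO. The others on chromosome 4 are Col8a2, Col16a1, Col27a1 and Col15a1, whose LAO1 KO differences were 0.06, -0.19, 0.25 and 0.14, each with a 95% interval that spanned 0.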

How the data were processed

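The series table of 22206 probes on 12 arrays was used. Values are on a log2 scale, deposited by the authors. Transcriptome Analysis Console is the tool listed in the submitters' processing notes. The summarisation, the normalization and the build are not given in the sources used here. Gene symbols came from the platform annotation, and all 42 collagen Entrez IDs were found in RefSeq under the same symbol. Genotypes came from the labels. One limma 3.58.1 model (R 4.3.3; lmFit and eBayes) with a mean per genotype and 8 residual degrees of freedom was fitted to all probes, tested on simulated data, and read through 6 contrasts with two-sided Benjamini-Hochberg adjusted p-values over all probes at 0.05 and unadjusted 95% intervals. Probes above the 75th percentile of probe means were called bright and those up to the 40th dim.

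Named were the collagens past the threshold, the 3 with the smallest p per direction and comparison, the bright collagens and their chain partners, and from each of 7 pathway lists the 2 with the smallest p per direction. Of the pathway genes, those with an unadjusted p under 0.05 are printed. The 10 marker lists were summed on the linear scale and counted by direction. Members and lists were chosen with earlier results of these data known. Alternatives were a replicate block, trended and robust eBayes, quantile normalization, median centring, probes above the 40th percentile, the compared arrays alone and leaving out each array. Promoter windows came from RefSeq on GRCm38.p6, with 34 of 42 collagens matched. With no counts on arrays, the number of arrays limits precision.

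The same-numbered arrays were checked for pairing: over 18 pairs the correlation of their deviations from genotype means ran from -0.142 to 0.218, and 7 exceeded 0.1. For arrays with different numbers it ran from -0.315 to 0.287. These values do not settle whether the numbers mark pairs. The main fit did not treat them as pairs, and a fit with the replicate number as a block is given below.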

Additional observations from a re-analysis of the deposited data

How the results depend on the processing

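The count of 0 collagens past the adjusted threshold held in every fit run, for all 6 comparisons and all alternatives. The number of all probes past it was less stable. In DKO against wild type it was 5, 11 with trended robust eBayes and 2 with only the compared arrays; in IL4i1 KO against wild type it was 3 and 8 with trended robust eBayes; in DKO against IL4i1 KO it was 106 and 33 with only the compared arrays. With the replicate number as a block it was 6, 1, 3, 43, 166 and 60 in the order of the report, and 0 collagens passed. Each genotype holds the same replicate numbers, so the block cannot change a class median, and the medians are no check of it. With only probes above the 40th percentile of probe means, which leaves fewer chains, the basement membrane median was -0.14 in LAO1 KO and -0.16 in IL4i1 KO against wild type, 0.32 in DKO against LAO1 KO and 0.39 in the interaction. The alternative of a lowest-mean probe was not run, since each collagen has 1 probe.

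Leaving out 1 array at a time gave 1 to 38 probes in DKO, 1 to 4 in LAO1 KO and 2 to 6 in IL4i1 KO against wild type, 11 to 68 in DKO against LAO1 KO and 46 to 174 in DKO against IL4i1 KO. The basement membrane median ranged from 0.0 to 0.23 in DKO and -0.19 to 0.16 in IL4i1 KO against wild type, 0.08 to 0.25 in DKO against LAO1 KO, 0.01 to 0.35 in DKO against IL4i1 KO and -0.03 to 0.32 in the interaction, and the fibrillar interaction median from -0.16 to 0.66. Uncalled differences from wild type that changed sign were, in DKO, Col1a1 (-0.72 to 0.15), Col3a1 (-1.08 to 0.14), Col6a3 (-0.52 to 0.27) and Col16a1 (-0.27 to 0.25). In LAO1 KO they were Col6a1 (-0.42 to 0.03) and Col16a1 (-0.48 to 0.04), and in IL4i1 KO Col6a1 (-0.53 to 0.02), Col6a3 (-0.60 to 0.01) and Col16a1 (-0.04 to 0.48). Of the named pathway genes, Ddr2 passed the threshold in DKO against IL4i1 KO without DKO replicate 2 (-1.11, limma adjusted p = 0.0471). The breakdown list was refitted without single arrays after the data were seen. The cause of these shifts was not tested. Dim probes lie near the array background, and 3 arrays per genotype limit every interval.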
